A study of Arabidopsis thaliana with 12 samples.

Results

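The transcript response of wild-type *Arabidopsis thaliana* seedlings to auxin was read from 6 arrays, 3 of seedlings given indole-3-acetic acid (IAA) and 3 of solvent controls. The probe sets described are those with a value above the lowest deposited value, 5.64 on the log2 scale (a signal of 50), on at least 3 of these 6 arrays. There were 13218 of them among 22746 probe sets other than the AFFX controls (58.1%), and 12017 lay above the lowest value on all 6 arrays. Just inside that limit, the 369 probe sets above the lowest value on exactly 3 arrays had a median mean signal of 5.79 log2 over the 6 arrays. Just outside it, the 310 tested probe sets above it on exactly 2 arrays had a median of 5.70 over the 6 arrays.

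The plants were the accession Columbia, with no mutation or transgene named in the labels, grown from sterilised seed in shaken liquid Murashige and Skoog medium (1.5% sucrose) with a daily cycle of 16 h light and 8 h dark. After 7 days they received 5 µM IAA or ethanol alone for 2 h at 24 °C, and total RNA of whole seedlings was measured. The series also held 3 IAA and 3 control arrays of *arf2-6*, a line with a mutant allele of the auxin response factor gene *ARF2*, grown and treated in the same way. *ARF2* itself was paired with no single-gene probe set here, so that its transcript was not analysed. Nothing in the labels says that the 3 arrays of a group came from separate cultures, and the p-values therefore reflect the spread among these arrays alone, part or all of which could be technical.

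Auxin acts on transcription by bringing together receptors of the TIR1/AFB family and Aux/IAA repressors, which are then degraded. Auxin response factors (ARFs) that the repressors held at their target promoters are thereby set free to change transcription. Among the targets known in seedlings are the *Aux/IAA* genes themselves, the *GH3* genes for enzymes that join IAA to amino acids, and transcription factor genes used to form lateral roots.

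Array medians ranged from 6.16 to 6.22 log2, and 12914 to 13075 probe sets per array lay above the lowest value. The wild-type control array 3 stood furthest from its group among the 6, with a mean correlation of 0.961 with the other controls, against 0.968 and 0.973 for the other control arrays and 0.982 to 0.985 for the IAA arrays. Leaf genes were present in both groups: *RCA*, for Rubisco activase, read 12.50, 12.45 and 12.34 log2 on the control arrays and 12.57, 12.51 and 12.55 on the IAA arrays. The root hair expansin gene *EXPA7* read 7.10, 7.23 and 6.52 without IAA and 7.07, 7.52 and 6.86 with it, so that shoot and root transcripts were both in the RNA. None of the 3 leaf genes, the 2 root hair genes and the 4 reference genes measured was called for IAA. In RNA of whole seedlings, more cells of a type and more RNA per cell cannot be told apart.

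Over all probe sets described, 1194 were called for IAA (9.03%; limma, Benjamini-Hochberg adjusted p under 0.05). Of these, 660 were higher with IAA (4.99%) and 534 were lower (4.04%). The rises were larger than the falls among the called probe sets, with medians of 0.86 and -0.69 log2, while the median over all 13218 was 0.003 with quartiles of -0.14 and 0.14. A change of at least 2-fold was called upward for 254 probe sets (1.92%) and downward for 95 (0.719%), at least 4-fold for 54 and 6, and at least 8-fold for 12 and 1. The 3 IAA arrays all lay beyond the 3 control arrays for 1190 of the 1194 called, and for 2963 of all 13218 (22.4%). Separate groups therefore add little to a call, and are given below as descriptions.

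A value of 5.64 is a bound, since the true signal may lie lower. Among the probe sets called higher, 188 had at least 1 control array at that value, 109 of those called lower had at least 1 IAA array there, and their differences are lower bounds on the change. All 3 control arrays lay at 5.64 and all 3 IAA arrays above it for 117 probe sets, of which 91 were called. The reverse held for 89, of which 46 were called. These 206 came into the description through 1 group alone and had to differ, so that calls among them are no finding, and counts of gene lists that hold such members are given below as descriptions. Read against mean signal, which mixes transcript level with probe binding, calls were 3.88% upward and 3.62% downward from 7.5 to 8.5 log2, and 1.05% and 1.65% among the 666 probe sets over 10.5 log2. Where the mean over all arrays was at least 7.64 log2, well above the lowest value, 87 of 5999 probe sets were called at least 2-fold higher and 32 at least 2-fold lower.

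**Figure D1:**
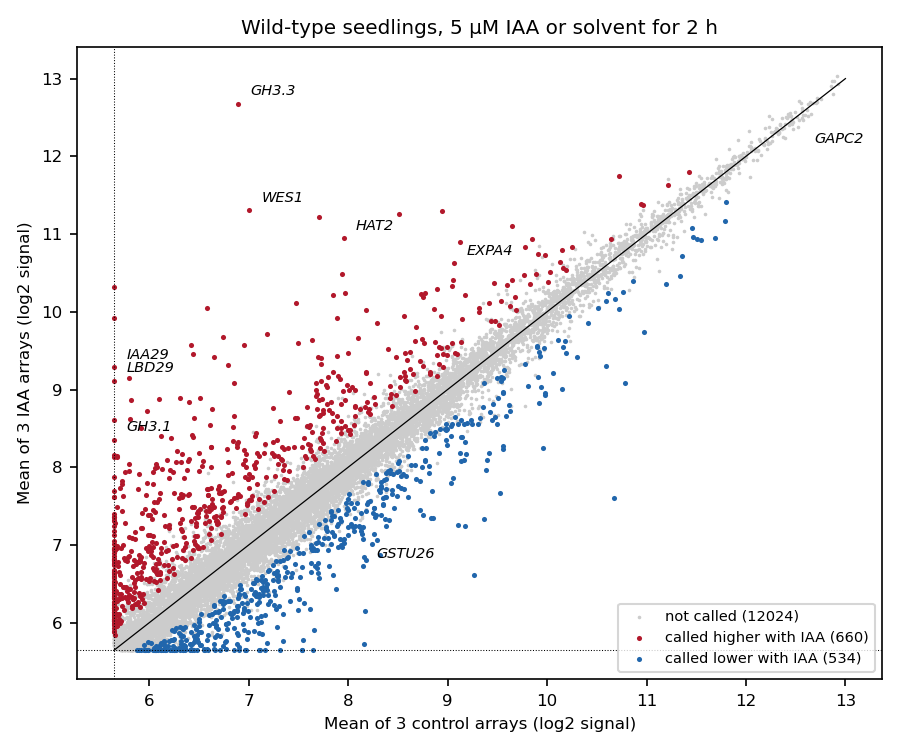
Each point is a probe set, at its mean over the 3 wild-type control arrays (horizontal, log2 signal) and over the 3 IAA arrays (vertical, log2 signal), with 660 called higher in red, 534 called lower in blue and the rest in grey. The solid line marks equal signal, the dotted lines mark the lowest deposited value of 5.64, and the points farthest from the diagonal lie above it, led by *GH3.3*.

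Of the called probe sets, 577 were paired with a single gene, 19 with several genes, and 598 were not listed with a gene in the annotation used here. Most single genes carried only a locus code, and 98 called probe sets (57 higher, 41 lower) had a gene symbol. Some of the largest changes came from probe sets with no single gene. Probe set 262099_s_at lay at 5.64 on every control array and read 10.76, 10.15 and 10.06 with IAA, a rise of at least 25.6-fold. Probe set 261766_at also lay at 5.64 on every control array and read 9.79, 10.01 and 9.96 with IAA, at least 19.4-fold higher. Both were described only through their IAA arrays, so that separate groups were fixed beforehand. Their calls (adjusted p of 1.0e-07 and 2.0e-09 by limma) are no finding. The largest fall of all, -3.07 ± 0.21 log2 or 8.43-fold (adjusted p = 3.3e-06), was that of 254820_s_at, which is paired with 2 genes and read 10.48, 10.97 and 10.57 without IAA and 7.58, 7.81 and 7.42 with it. The unlisted 254606_at read 9.17, 9.34 and 9.29 without IAA and 6.64, 6.68 and 6.54 with it, and fell by 2.65 ± 0.15 log2 (adjusted p = 7.6e-07). Both were separate between groups.

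Among named genes, *GH3.3* and *WES1*, for enzymes that conjugate auxin, had the largest fitted rises. Those of *IAA29* and *LBD29*, next in size, are lower bounds. Of 4 *GH3* genes measured, 3 were called higher and none lower, among them *GH3.1*, which was described only through its IAA arrays. The shares over all probe sets were 4.99% higher and 4.04% lower. *GH3.3* (AT2G23170) read 7.41, 6.98 and 6.29 log2 on the control arrays and 12.87, 12.82 and 12.34 on the IAA arrays. Its difference of 5.78 ± 0.32 log2 (SE of the fit) or 55.0-fold was the largest fitted for any probe set described (limma adjusted p = 7.0e-07). *WES1* (AT4G27260, also named *GH3.5*), whose enzyme joins IAA to amino acids such as aspartate, read 7.25, 7.59 and 6.16 without IAA and 11.77, 11.15 and 10.99 with it, a rise of 4.30 ± 0.37 log2 or 19.7-fold (adjusted p = 2.1e-05). For both genes control array 3 was the lowest of the controls, and all IAA arrays lay far above all controls.

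*GH3.1* lay at 5.64 on all control arrays and at 8.26, 8.40 and 8.41 with IAA, at least 6.55-fold higher (adjusted p = 1.0e-07). The remaining member was *GH3.17*, whose enzyme joins IAA to glutamate. It read 7.70, 8.20 and 8.46 on the control arrays and 8.32, 8.02 and 8.10 with IAA, a difference of 0.03 ± 0.18 log2 (adjusted p = 0.98), and its groups overlapped. For *GH3.1*, separate groups were fixed beforehand. Of the 3 other members, 2 were called higher with separate groups, which 22.4% of all probe sets described had.

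Sugar conjugation of auxin was represented by *IAGLU* (AT4G15550), annotated as an indole-3-acetate glucosyltransferase. It read 8.04, 7.03 and 7.43 log2 without IAA and 9.59, 9.51 and 9.68 with it, a rise of 2.09 ± 0.25 log2 or 4.26-fold (adjusted p = 0.00023) with no overlap. Of the 3 measured genes in the list of auxin metabolism, none rose and 1 fell (median -0.17 log2), beside overall shares of 4.99% and 4.04%. *UGT74D1*, whose enzyme can glucosylate auxins, differed by -0.17 ± 0.24 log2 (adjusted p = 0.80). AT1G14130 and AT1G14120 are neighbours entered in the same list: the former differed by 0.04 ± 0.16 log2, and the latter fell by 0.66 ± 0.17 log2 (adjusted p = 0.031). The call on AT1G14120 was lost in 8 of 15 refits, at adjusted p of 0.053 to 0.12.

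The *Aux/IAA* genes encode the repressors that auxin removes, and 3 of the 4 tested members were described here. The other, *IAA20*, lay above the lowest value on fewer than 3 wild-type arrays, and *IAA29* and *IAA30* were described only through their IAA arrays. *IAA29* lay at 5.64 on every control array and read 9.43, 9.19 and 9.24 log2 with IAA, at least 12.5-fold higher (adjusted p = 3.6e-09). *IAA30* also lay at 5.64 on every control array and read 6.86, 6.14 and 6.50 with IAA, at least 1.81-fold higher (adjusted p = 0.0034). *IAA18* read 7.12, 7.31 and 7.42 without IAA and 8.02, 7.51 and 7.74 with it, and although its groups did not overlap, the difference of 0.48 ± 0.15 log2 was not called (adjusted p = 0.090). ARF genes and TIR1/AFB receptor genes had no single-gene probe set among those described and were not analysed here.

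Of 5 tested transcription factor genes of lateral root formation and patterning, *SHI* lay above the lowest value on fewer than 3 wild-type arrays and was not described. *LBD29* and *PUCHI* were described only through their IAA arrays, and *LBD16* and *HAT2*, above the lowest value in both groups, were called higher. *LBD29* and *LBD16* encode LOB-domain factors that act below ARF7 and ARF19 when lateral roots begin. *LBD29* lay at 5.64 on all control arrays and read 9.30, 9.11 and 8.93 with IAA, at least 11.1-fold higher (adjusted p = 1.5e-07). *LBD16* read 5.96, 5.83 and 5.90 without IAA and 7.98, 8.00 and 7.75 with it, a rise of 2.01 ± 0.11 log2 or 4.04-fold (adjusted p = 6.9e-07).

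*PUCHI*, for an AP2/ERF factor that patterns the lateral root primordium, lay at 5.64 without IAA and at 6.66, 6.79 and 6.53 with it, at least 2.02-fold higher (adjusted p = 5.8e-06). *HAT2*, a homeodomain-leucine zipper gene known to respond to auxin, was already well above the lowest value in the controls, at 8.08, 8.07 and 7.71 log2. With IAA it read 10.85, 11.02 and 10.98, a rise of 2.99 ± 0.14 log2 or 7.97-fold (adjusted p = 1.7e-07). All 4 genes had IAA arrays that lay tightly together, and those of *LBD16* and *HAT2* lay clear of the controls. For *LBD29* and *PUCHI*, described only through their IAA arrays, separate groups were fixed beforehand. *WAG2*, for a kinase that phosphorylates PIN auxin carriers, was the 1 gene of auxin transport measured, and rose from 5.64 on each control array to 6.75, 7.16 and 6.35, at least 2.16-fold (adjusted p = 0.00087). *WAG2* was described only through its IAA arrays, so that its call is no finding.

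**Figure D2:**
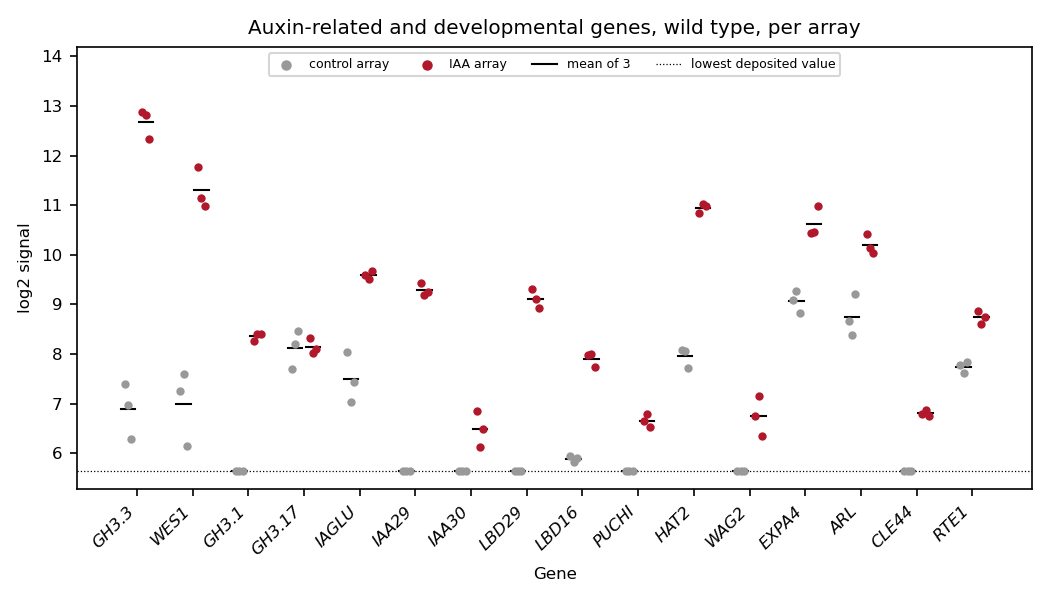
Log2 signal on each of the 3 control arrays (grey) and 3 IAA arrays (red) of the wild type for 16 genes of auxin conjugation, auxin signalling, root patterning, growth and ethylene signalling, with black bars at the means and a dotted line at the lowest deposited value. *GH3.17* overlaps between groups, the other genes do not, and 7 of the 16, such as *IAA29* and *LBD29*, lie on the dotted line on all control arrays.

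Genes acting on the cell wall were called in both directions. Expansins loosen the wall during growth, and of 12 measured expansin genes 2 rose and 1 fell (median 0.12 log2), few genes beside the overall shares of 4.99% and 4.04%. *EXPA4* read 9.10, 9.27 and 8.83 log2 without IAA and 10.44, 10.46 and 10.99 with it, a rise of 1.56 ± 0.21 log2 or 2.95-fold (adjusted p = 0.00061). *EXPA20* rose by at least 2.03-fold (adjusted p = 0.00016), from 6.00, 5.69 and 5.64 to 6.58, 6.90 and 6.91. The beta-expansin gene *EXPB1* read 5.97, 6.13 and 5.87 without IAA and 5.64 on all IAA arrays, at least 1.27-fold lower (adjusted p = 0.0041, and 0.052 when the 6 wild-type arrays were fitted alone). It was described only through its control arrays, so that its call is no finding. Of the 11 other expansin genes, 2 were called higher and 0 lower.

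Xyloglucan endotransglucosylase/hydrolases (XTH) cut and rejoin xyloglucan. Of 8 measured members 3 rose and 1 fell (median 0.11 log2), beside overall shares of 4.99% and 4.04%. *XTH19* read 7.60, 7.82 and 8.27 without IAA and 9.35, 8.84 and 9.34 with it (1.28 ± 0.21 log2, adjusted p = 0.0022). Its chromosomal neighbour *XTH18* read 7.92, 7.95 and 7.87 without IAA and 9.32, 9.03 and 9.06 with it (1.22 ± 0.15 log2, adjusted p = 0.00028). *XTH33* rose by 0.74 ± 0.12 log2 (adjusted p = 0.0023), whereas *XTH32* read 8.66, 8.72 and 8.94 without IAA and 8.08, 8.16 and 8.04 with it, and fell by 0.68 ± 0.12 log2 (adjusted p = 0.0049). None of these 4 genes had overlapping groups, and neither did 1190 of the 1194 called probe sets.

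Of 5 measured GH9 endoglucanase genes, which encode enzymes that cut glucan chains, 2 rose and none fell, beside overall shares of 4.99% and 4.04%. The GH9 group was added after values had been seen. *GH9B13* read 7.04, 6.86 and 7.28 without IAA and 8.24, 8.15 and 8.81 with it, a rise of 1.34 ± 0.20 log2 (adjusted p = 0.0014). The call on the second, *GH9C2* (0.60 ± 0.14 log2), was lost in 4 of 15 refits at adjusted p of 0.054 to 0.088. A pectin methylesterase gene, *ATPMEPCRB*, rose by 1.03 ± 0.17 log2 (adjusted p = 0.0027), from 7.01, 6.98 and 6.94 to 8.08, 8.30 and 7.63. Of 4 measured class III peroxidase genes 2 were called higher and 0 lower, beside the same overall shares. *PRX72* (AT5G66390), for an enzyme of lignification, read 8.13, 7.96 and 7.96 without IAA and 8.50, 8.50 and 8.46 with it. This was a small rise of 0.47 ± 0.08 log2 (adjusted p = 0.0037). The call on the other, *Prx37*, was lost in 7 of 15 refits at adjusted p of 0.062 to 0.11.

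Of 15 probe sets of 14 *TBL* genes, which act on wall polymer acetylation, 2 were called lower and none higher (median -0.21 log2). They stand beside overall shares of 4.04% and 4.99%, and the *TBL* group was added after values had been seen. *TBL25*, whose product acetylates mannan, read 8.91, 8.77 and 8.77 without IAA and 7.80, 8.03 and 7.96 with it, and fell by 0.89 ± 0.11 log2 (adjusted p = 0.00026). For the other, AT2G31110 (0.89 ± 0.19 log2 lower), the call was lost in 3 of 15 refits at adjusted p of 0.057 to 0.063, and another probe set of the same gene was not called.

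Several growth and hormone genes outside these families rose. *ARL*, for an ARGOS-like promoter of cell expansion, read 8.66, 8.38 and 9.21 log2 without IAA and 10.42, 10.13 and 10.03 with it, a rise of 1.44 ± 0.23 log2 (adjusted p = 0.0018). *EXO*, a brassinosteroid-responsive growth gene, read 9.03, 8.27 and 8.74 without IAA and 9.80, 9.73 and 9.89 with it (1.13 ± 0.16 log2, adjusted p = 0.00095). *BAT1*, annotated as a brassinosteroid-related acyltransferase, rose by 0.95 ± 0.12 log2 (adjusted p = 0.00054), from 7.67, 7.86 and 7.60 to 8.60, 8.47 and 8.90. In each of these 3 genes all IAA arrays lay above all controls, and groups were separate for 1190 of the 1194 called probe sets.

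Of the 2 ethylene genes measured, *RTE1*, which promotes the action of the ethylene receptor ETR1, read 7.77, 7.62 and 7.84 without IAA and 8.86, 8.61 and 8.75 with it, a rise of 1.00 ± 0.11 log2 (adjusted p = 0.00011). *EIN3*, the central transcription factor of ethylene signalling, differed by 0.15 ± 0.21 log2 (adjusted p = 0.80). No call was made among the measured members of the lists for gibberellin (2 genes), cytokinin (1), abscisic acid and stress (2), the cell cycle (2) and the clock (1). The 1 jasmonate and defence gene measured, the transcription factor gene *WRKY6*, was called at 0.47 ± 0.13 log2 (adjusted p = 0.045), a call lost in 12 of 15 refits at adjusted p of 0.055 to 0.19. In the lists without a call the zinc finger gene *STZ* had the largest difference, 1.11 ± 0.44 log2 (adjusted p = 0.19), with IAA arrays at 8.78, 8.96 and 7.07 and controls at 7.49, 6.54 and 7.45, so that its groups overlapped. IAA array 3 lay below 2 of the control arrays, and without it *STZ* was called, at 1.71 log2 (limma adjusted p = 0.0065, against 0.13 to 0.55 in the other refits).

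*CLE44* and *CLE41* encode the same peptide signal, TDIF, which keeps vascular stem cells dividing. *CLE44* was described only through its IAA arrays, so that its call is no finding. *CLE44* lay at 5.64 on all control arrays and read 6.80, 6.87 and 6.76 with IAA, at least 2.24-fold higher (adjusted p = 1.6e-06). *CLE41* read 7.69, 7.75 and 7.88 without IAA and 7.18, 7.23 and 7.28 with it, and fell by 0.54 ± 0.11 log2 (adjusted p = 0.012). The groups of *CLE41* did not overlap. AT4G28650, annotated as *PXL2* for a relative of the TDIF receptor PXY, fell by 0.42 ± 0.10 log2 (adjusted p = 0.020), a call lost in 4 of 15 refits at adjusted p of 0.060 to 0.10.

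Other symbol-bearing genes also rose. *ATG8G*, of the autophagy machinery, read 6.67, 6.89 and 6.92 without IAA and 8.01, 7.86 and 7.91 with it, a 2.14-fold rise (adjusted p = 3.3e-05). The ubiquitin ligase gene *PUB23* read 5.75, 5.64 and 5.64 without IAA and 6.88, 6.89 and 6.56 with it, at least 2.14-fold higher (adjusted p = 2.2e-05). *CP1*, for a cysteine proteinase, read 5.64, 5.64 and 5.67 without IAA and 7.10, 7.03 and 6.69 with it, at least 2.44-fold higher (adjusted p = 3.9e-05).

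*MGL*, for methionine gamma-lyase, read 6.18, 5.64 and 6.20 without IAA and 7.11, 7.26 and 7.79 with it, a rise of at least 1.38 log2 (adjusted p = 0.0013). *HMT-1*, for a homocysteine methyltransferase, read 7.90, 8.00 and 8.23 without IAA and 8.85, 9.07 and 9.15 with it (0.99 ± 0.11 log2, adjusted p = 0.00020). The dehydrin gene *LTI30* rose by 1.68 ± 0.20 log2 (adjusted p = 0.00029), the pathogenesis-related gene *PR-1-LIKE* by 1.24 ± 0.18 (adjusted p = 0.0013) and the transcription factor gene *bZIP44* by 0.72 ± 0.13 (adjusted p = 0.0042). All of these genes had IAA arrays wholly above their controls, and groups were separate for 1190 of the 1194 called probe sets.

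**Figure D3:**
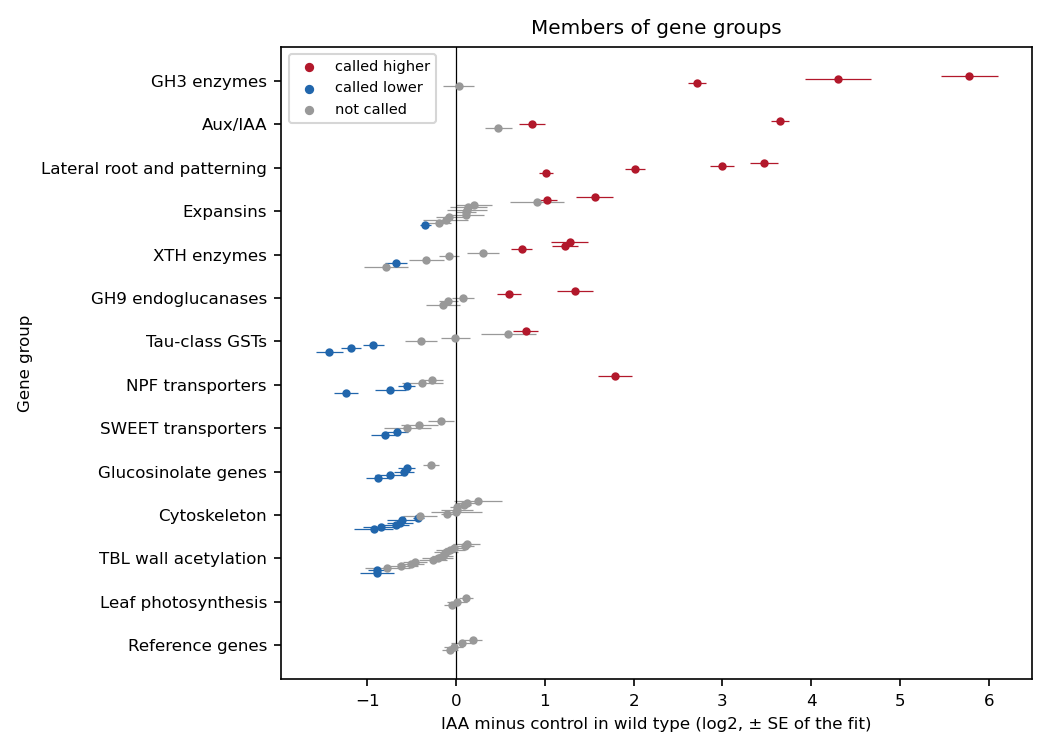
Difference between IAA and control arrays of the wild type (log2, point ± SE of the fit) for each measured member of 14 gene groups, with members called higher in red, called lower in blue and not called in grey. GH3, Aux/IAA and root patterning genes lie to the right of 0, while glucosinolate and SWEET genes lie to its left and the leaf and reference genes lie near 0.

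Of 28 measured UDP-glycosyltransferase genes, apart from *IAGLU*, 3 were called higher and 1 lower (median 0.02 log2), beside overall shares of 4.99% and 4.04%. Leaving out *UGT76D1*, 2 of 27 were called higher and 1 lower. *UGT87A2* read 6.76, 6.44 and 6.67 without IAA and 7.42, 7.74 and 7.22 with it, a rise of 0.84 ± 0.16 log2 (adjusted p = 0.0064). *UGT76D1*, whose enzyme glucosylates dihydroxybenzoic acids, came into the description only through its IAA arrays. It lay at 5.64 on all control arrays and read 6.20, 6.64 and 6.46 with IAA, at least 1.73-fold higher (adjusted p = 0.00012). The third, *UGT84A3*, was called at 0.51 ± 0.14 log2 but lost the call in 10 of 15 refits, at adjusted p of 0.057 to 0.19.

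Tau-class glutathione S-transferases join glutathione to small molecules. Of 7 measured members 3 fell and 1 rose (median -0.39 log2), beside overall shares of 4.04% and 4.99%. The tau group was added after values had been seen. Over all 9 measured glutathione S-transferase genes, 3 fell and 1 rose, with a median of -0.009 log2. *GSTU26* read 8.04, 8.37 and 8.05 without IAA and 6.90, 6.86 and 6.41 with it, and fell by 1.43 ± 0.15 log2, a 2.69-fold difference (adjusted p = 0.00011). *GSTU28* read 7.04, 6.89 and 7.01 without IAA and 5.92, 5.83 and 5.64 with it, at least 2.27-fold lower (adjusted p = 3.9e-05). *GSTU27*, at 9.43, 9.37 and 9.68 without IAA and 8.62, 8.51 and 8.56 with it, fell by 0.93 ± 0.12 log2 (adjusted p = 0.00043). *GSTU16* went the other way, from 5.89, 5.79 and 6.12 to 6.88, 6.84 and 6.42, a rise of 0.78 ± 0.14 log2 (adjusted p = 0.0036). The groups were separate for all 4, as for 1190 of the 1194 called probe sets.

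Glucosinolates are sulphur-rich defence compounds of this plant's family. Of 5 measured genes of their synthesis, modification and transport 4 fell and none rose (median -0.59 log2), beside overall shares of 4.04% and 4.99%. *AOP1*, for a side-chain dioxygenase family member, read 6.40, 6.40 and 6.85 without IAA and 5.64, 5.64 and 5.71 with it, at least 1.84-fold lower (adjusted p = 0.0016). *UGT74B1*, which glucosylates the thiohydroximate precursor, read 9.49, 9.50 and 9.68 without IAA and 9.02, 8.98 and 8.91 with it, and fell by 0.59 ± 0.11 log2 (adjusted p = 0.0057). The transporter gene *GTR2* read 8.96, 9.16 and 9.19 without IAA and 8.51, 8.56 and 8.59 with it, and fell by 0.55 ± 0.10 log2 (adjusted p = 0.0034). For *GTR1*, the call at -0.74 ± 0.18 log2 was lost in 8 of 15 refits, at adjusted p of 0.050 to 0.11. This group was put together after the gene table had been opened, and it shares *GTR1* and *GTR2* with the transporter family below.

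Transporter genes were called in both directions. Of 6 measured members of the NPF family, which carries nitrate, peptides, hormones and glucosinolates, 3 fell and 1 rose (median -0.47 log2). The shares over all probe sets were 4.04% lower and 4.99% higher, and the NPF group was added after values had been seen. *NPF6.4* (AT3G21670) read 7.12, 6.79 and 7.40 without IAA and 5.77, 5.95 and 5.89 with it, and fell by 1.24 ± 0.13 log2 (adjusted p = 0.00012). *NPF4.3* (AT1G59740) rose by 1.79 ± 0.19 log2 (adjusted p = 0.00011), from 6.14, 6.15 and 6.53 to 8.27, 7.73 and 8.20. The IAA and control arrays were apart in both genes.

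SWEET proteins carry sugars across membranes. Of 5 measured *SWEET* genes 2 fell and none rose (median -0.55 log2), beside overall shares of 4.04% and 4.99%. The *SWEET* group was added after values had been seen. *SWEET17*, a vacuolar fructose carrier gene, read 8.04, 8.23 and 8.30 without IAA and 7.52, 7.65 and 7.41 with it, and fell by 0.67 ± 0.13 log2 (adjusted p = 0.0067). *SWEET2*, also for a vacuolar sugar carrier, fell by 0.80 ± 0.16 log2 (adjusted p = 0.0084, and 0.055 with the 6 wild-type arrays fitted alone). The sugar transporter-like gene *SFP1* read 8.24, 8.34 and 8.55 without IAA and 7.39, 7.18 and 7.17 with it, and fell by 1.13 ± 0.13 log2 (adjusted p = 0.00021). *TMT1*, for a monosaccharide carrier of the vacuolar membrane, had closely spaced replicates, at 8.90, 8.93 and 8.95 against 8.49, 8.50 and 8.47, and fell by 0.44 ± 0.08 log2 (adjusted p = 0.0033).

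Regulators were also among the genes that fell. The AP2/ERF factor gene *tny* (TINY) read 7.70, 7.79 and 7.19 without IAA and 6.19, 6.53 and 6.04 with it, and fell by 1.30 ± 0.20 log2 (adjusted p = 0.0014). *LSH9*, of the ALOG family of plant developmental regulators, read 7.29, 7.19 and 6.93 without IAA and 5.70, 6.00 and 5.86 with it, and fell by 1.28 ± 0.11 log2 (adjusted p = 2.1e-05). *PSY1R*, for a receptor kinase linked to the growth peptide PSY1, read 7.00, 7.27 and 7.09 without IAA and 6.36, 6.46 and 6.53 with it, and fell by 0.67 ± 0.10 log2 (adjusted p = 0.0010). The trihelix factor gene *GT2* fell by 0.74 ± 0.13 log2 (adjusted p = 0.0045). None of the 4 had overlapping groups, and neither did 1190 of the 1194 called probe sets.

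The families that follow were added after values had been seen, and stand beside overall shares of 4.04% called lower and 4.99% called higher. Of 14 measured cytoskeleton genes 6 were called lower and none higher (median -0.25 log2), yet 1 of these calls held in all 15 refits. That was *WLIM2a*, for an actin-bundling protein, at 9.48, 9.58 and 9.56 without IAA and 9.09, 9.13 and 9.13 with it, a fall of 0.42 ± 0.06 log2 (adjusted p = 0.0015). The calls on *ACT11*, *ATMAP65-6*, *PLIM2b*, *TUB1* and *SP1L4*, between -0.61 and -0.93 log2, were each lost in 4 to 9 refits, at adjusted p between 0.051 and 0.18. Of 5 measured methionine sulfoxide reductase genes, the chromosomal neighbours *MSRB5* and *MSRB6* were called lower and none higher, by -0.44 ± 0.11 and -0.66 ± 0.12 log2 (adjusted p = 0.028 and 0.0056), of which *MSRB5* lost the call in 6 refits at adjusted p of 0.058 to 0.096. Of 8 beta-glucosidase genes 2 were called lower and none higher. For *BGLU15* (-0.52 ± 0.12 log2) the call was lost in 5 refits at adjusted p of 0.052 to 0.074, while *BGLU40* fell by 0.71 ± 0.12 log2 (adjusted p = 0.0037), from 6.43, 6.62 and 6.97 to 6.00, 6.08 and 5.82.

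**Figure D4:**
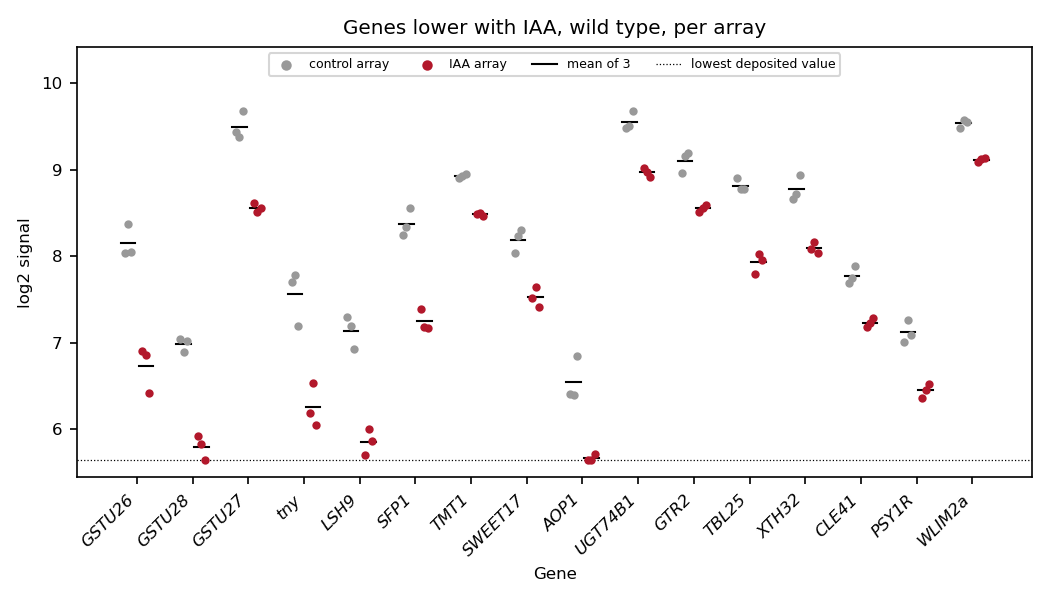
Log2 signal on each of the 3 control arrays (grey) and 3 IAA arrays (red) of the wild type for 16 genes called lower with IAA, with black bars at the means and a dotted line at the lowest deposited value. In each gene the 3 red points lie below the 3 grey ones, and *AOP1* and *GSTU28* reach the dotted line on at least 1 IAA array.

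The single genes that fell most belonged to genes with only a locus code here. AT3G01260 read 7.98, 8.12 and 8.40 without IAA and 5.88, 5.91 and 6.67 with it, and fell by 2.01 ± 0.22 log2 (adjusted p = 0.00011). AT4G25250 read 7.52, 8.08 and 7.34 without IAA and 5.64 on all IAA arrays, at least 4.01-fold lower (adjusted p = 7.0e-06). It was described only through its control arrays, so that its call is no finding. AT3G01190 fell by 1.92 ± 0.17 log2 (adjusted p = 2.3e-05), from 9.01, 9.25 and 9.25 to 7.05, 7.42 and 7.28. The groups of AT3G01260 and of AT3G01190 were well apart.

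Among the 30 largest single-gene rises, 8 genes had a symbol, and the 22 others, such as AT4G17350 (3.04 ± 0.15 log2, 8.25-fold) and AT1G62770 (3.01 ± 0.13 log2, 8.07-fold), had only a locus code. All 30 of these rises kept their call in each refit that tested them. The 30 largest falls did so except for AT4G11190, whose call (-1.32 ± 0.30 log2) was lost in 3 refits at adjusted p of 0.066 to 0.087. The smallest of these rises was 1.82 log2, and the smallest of these falls was 1.13 log2 in size.

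Position on the chromosomes was described from the order of genes in the gene table. The share of single-gene probe sets called was 7.57% on chromosome 1, 8.13% on 2, 8.86% on 3, 9.43% on 4 and 7.80% on 5. None of the 67 measured genes of the chloroplast genome was called, with a median of -0.12 log2. Of 2030 pairs of adjacent genes that were both measured, 8 pairs were both higher, 7 both lower and 3 opposite. Among genes next to one called higher, 9.25% were called higher, against 4.26% of all genes in such pairs, and the matching shares for lower calls were 9.86% and 3.498%. The pairs included *XTH18* with *XTH19*, AT3G50340 (2.19 log2) with AT3G50350 (1.04 log2), and AT5G60520 (-1.32 log2) with AT5G60530 (-0.90 log2). *WES1* lay next to AT4G27270 (0.47 log2), which in turn lay next to AT4G27280 (2.03 log2), and all were called higher.

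The same treatment in *arf2-6* used other arrays, but the differences of both genotypes came from the same model with a shared estimate of spread. Calls in the wild type are thus not independent of calls in *arf2-6*. There 8.85% of the 13218 probe sets were called for IAA, and 808 of the 1194 wild-type calls were called in the same direction. All of the 30 largest rises and the 30 largest falls named above were called in the same direction in *arf2-6*. For *GH3.3* the difference was 5.90 log2 in *arf2-6* against 5.78 in the wild type, for *HAT2* 2.81 against 2.99, and for *GSTU26* -1.57 against -1.43.

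The test of the difference between the genotypes (IAA by genotype interaction) called 14 probe sets (0.106%), and 473 passed an unadjusted p under 0.05. With the replicate number as a block in the fit, 4 were called. The difference was smaller in *arf2-6* for all 14, a direction that the choice by wild-type arrays favours: over all 14215 probe sets tested, 16 were called, and the 2 with a larger difference in *arf2-6* were not among those described. All 14 had the 3 *arf2-6* control arrays at the lowest value, and 11 had the 3 wild-type control arrays there as well. In 3 of them all *arf2-6* arrays lay at the lowest value, and in 3 others so did 2 of the 3 *arf2-6* IAA arrays, so that no size can be given for the *arf2-6* response. Of the 11553 probe sets above the lowest value on all 12 arrays, limma called 0 for the interaction, with 268 at an unadjusted p under 0.05. *PUCHI* read 5.64, 5.85 and 5.87 on the *arf2-6* IAA arrays against 6.66, 6.79 and 6.53 in the wild type, with all controls of both genotypes at 5.64 (interaction adjusted p = 0.023). *UGT76D1* read 5.64, 5.66 and 5.64 on the *arf2-6* IAA arrays, all but 1 of them at the lowest value, against 6.20, 6.64 and 6.46 in the wild type (adjusted p = 0.043).

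**Figure D5:**
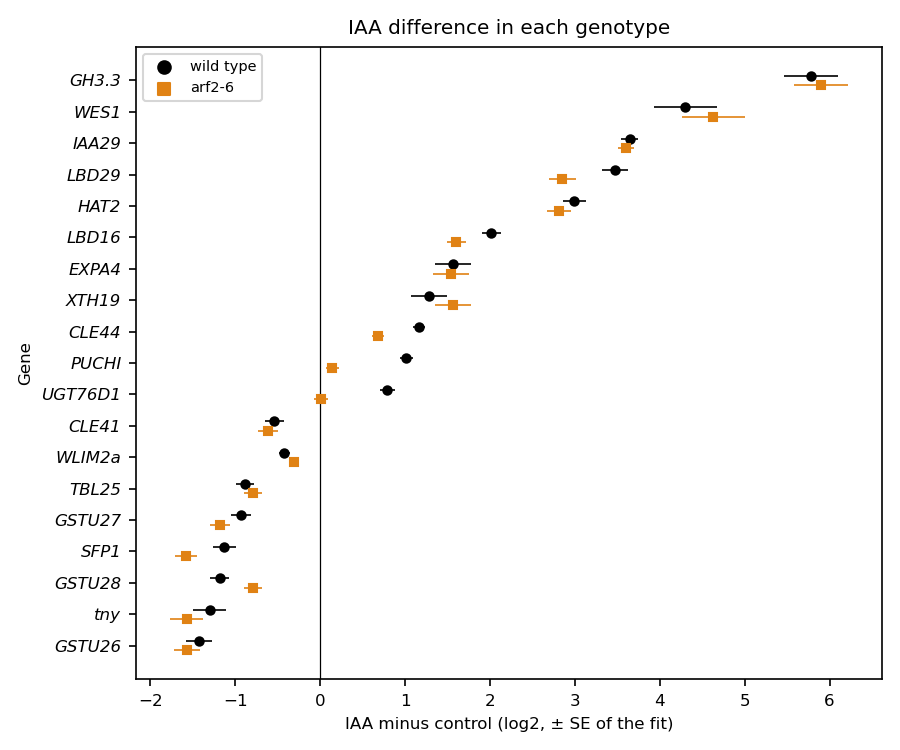
Difference between IAA and control arrays (log2, point ± SE of the fit) in the wild type (black circles) and in *arf2-6* (orange squares) for 19 genes named in the text. *GH3.3* is farthest to the right in both genotypes, and *PUCHI* and *UGT76D1* are the pair for which the difference between the genotypes was called.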

How the data were processed

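One-colour array signals of total RNA from whole seedlings were deposited by the authors as log2 values, with 22810 probe sets on each of 12 arrays. The steps by which the signals were summarised, scaled and bounded at 5.64 log2 were not given in the sources used here, and the deposited scaling was kept. Groups and replicate numbers were taken from the labels.

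One limma model (limma 3.58.1, R 4.3.3, statmod 1.5.0) held 1 mean for each of the 4 groups over all 12 arrays, with 8 residual degrees of freedom and a variance prior following mean signal. The 64 AFFX controls and the 8531 probe sets at the lowest value on all arrays were left out, which left 14215 tested. Tests were two-sided, p-values were adjusted over all tested by Benjamini-Hochberg, and a probe set was called at an adjusted p under 0.05. Only the 13218 described are counted. A group at the lowest value has no spread of its own, which can lower its estimated error. The number of arrays limits the precision. The fit was tested on simulated data. Tables and plots used Python 3.11.15, pandas 2.3.3 and matplotlib 3.10.9.

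Gene names came from the platform annotation, which can be old, brought up to date with the TAIR10.1 gene table. A fold written as "at least" is against a group with an array at the lowest value. Genes were named by a rule: the 30 largest called rises and falls on single-gene probe sets with separate groups, called members of gene lists and families, the auxin genes nearest to a call, and called genes with the highest control level. Further genes with a symbol, and the families of *CLE*, TDIF, *SWEET*, tau GST, *MSR*, *TBL*, *BGLU*, GH9, NPF, cytoskeleton, glucosinolate and chloroplast genes, were added after values had been seen. The members, lists and rule were chosen with earlier results of these data known. The 23 lists held 351 genes, of which 50 had a single-gene probe set. Lists for seed storage, flower and pollen, brassinosteroid, touch and nitrogen had none among the probe sets described. Calls were recomputed in 15 refits that changed the arrays, scaling, filter, variance prior or replicate block.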

Additional observations from a re-analysis of the deposited data

Results flagged for a closer look

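The difference between the genotypes in the response to IAA was called for 14 of 13218 probe sets. Of the named genes, *PUCHI* (interaction -0.87 log2, adjusted p = 0.023) and *UGT76D1* (-0.78 log2, adjusted p = 0.043) were among them by limma. Both had all control arrays of both genotypes at the lowest deposited value and were described only through their wild-type IAA arrays, a choice that favours a smaller difference in *arf2-6*. The fitted values compare bounds and are no exact sizes. The part of that lowest value in the result was not tested.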

How the results depend on the processing

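Against 1194 calls in the wild type, 349 of them at least 2-fold, the calls numbered 826 with the 6 wild-type arrays fitted alone, 1204 after quantile normalization, 1214 after median centring, 897 without a filter and 1231 over the described probe sets only, and 896 among those above the lowest value on all 6 arrays. A constant variance prior gave 1181. Leaving out each wild-type array in turn gave 851 to 1068 calls, 335 to 372 at least 2-fold and 97 to 104 of the 111 named genes fixed by the rule. Without wild-type control array 3 and *arf2-6* control array 2, a refit chosen after seeing the data, 1143 were called. Among 158 called genes named by the rule or added, 112 kept the call in every refit that tested them. The other 46 lost it at least once (35 with the 6 wild-type arrays alone), and 0 changed direction. Whether the replicate numbers pair the samples stayed unsettled. Same-numbered wild-type arrays deviated together with r of -0.09, 0.32 and 0.51. Control arrays 1 and 2 correlated best with an IAA array of another number, at 0.15 and 0.35. In *arf2-6* the same-numbered arrays had r of 0.30, 0.03 and 0.30, in each case the highest for that control array. With the replicate number as a block, 1181 were called (1096 of them also called without it), 349 at least 2-fold, and the interaction calls went from 14 to 4. The cause was not tested. Quantile normalization gave 12 interaction calls. The bound at 5.64 log2 limits every difference that meets it.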
